A study of Homo sapiens with 12 samples.

Results

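Mitotic spindle and checkpoint genes encode the proteins that build the spindle, attach it to chromosomes and time the separation of sister chromatids. The 56 genes described here, of 18666 genes named on the array, were chosen by name from their known roles, with earlier results of these data known. They were represented by 88 of the 48803 probes of the array, all probes whose gene symbol in the array annotation belonged to the list. Of the genes 30 had 1 probe, 21 had 2, 4 had 3 and 1 had 4. A probe was tested when its signal exceeded that of the negative control beads, at a detection p-value under 0.01, on at least 3 of the 12 arrays. This held for 81 probes of 55 genes, and 51 genes were detected on all 12 arrays at their brightest probe. The remaining gene, NCAPH, a subunit of condensin I, had 1 probe that was detected on 0 arrays, so the data hold no measurement of it above background.

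The arrays came from 2 derivatives of the human embryonic kidney line HEK293, made in the Flp-In T-REx host by inserting a FLAG-tagged ALKBH4 or ALKBH7 cDNA at 1 genomic site behind a tetracycline-inducible promoter. Per the methods of the study, the lines were expanded from single colonies, and all cells were grown in tetracycline-free serum with blasticidin-S and hygromycin B. The 4 groups were the ALKBH4 line and the ALKBH7 line, each uninduced, without doxycycline, or induced with 2 µg/ml doxycycline and harvested 48 hours after induction. Each group had 3 samples and each sample 1 Illumina HumanWG-6 v3 array, and the question was whether overexpression of ALKBH4 or ALKBH7, which belong to the AlkB family of dioxygenases, changes transcript levels. Both lines carried a transgene and no group received doxycycline without one, so an effect of the drug and of the protein within a line cannot be told apart. The labels do not tell whether replicates came from separate cultures, and the p-values therefore cover only the spread among the arrays, which may be technical.

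Most of these genes are transcribed in G2 and M phase. In G1 their promoters are held silent by the DREAM complex, and later in the cycle they are activated by B-MYB and FOXM1, which act through the same promoter element, the cell cycle genes homology region (CHR). At the kinetochore, the checkpoint proteins MAD1L1, MAD2L1, BUB1, BUB1B, BUB3 and TTK respond to kinetochores that lack microtubules and hold back CDC20, the activator of the anaphase promoting complex, until every chromosome is attached. The complex then marks securin (PTTG1) and the mitotic cyclins for destruction and so frees separase (ESPL1) to cut cohesin.

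RefSeq promoter windows, running from 250 bases before to 50 bases after an annotated start site on GRCh38.p14, were matched to 47 of the 56 genes, with 56 windows in all because some genes have several starts. Both strands were searched for 4 strings of letters, and a match is only a description of the window. The CHR letters TTTGAA were present in 34 of the 56 windows (60.7%), against 15.2% of all 35116 windows of this length. Within the last 100 bases before the start they were present in 20 windows (35.7%), against 4.61% of all windows. The CHR variant TTCGAA was found in 6 windows (10.7%, against 1.45%), the CCAAT box, bound by NF-Y, in 37 (66.1%, against 34.6%) and the E2F core TTCCCGC in 5 (8.93%, against 6.55%). The reverse of a CCAAT box, ATTGG, can overlap the end of a CHR, as it does in CDCA8.

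The 110 bases before the start site are shown for genes on which the results below turn: 4 that changed after ALKBH7 induction and have a TTTGAA in this stretch, MAD2L1, which fell most and has none of the letters there, and 3 of the genes that were lowest in the ALKBH7 line. Capitals mark CHR and CCAAT letters on either strand, and each sequence reads 5′ to 3′ in the direction of the gene.
CDC20, chr1:43358871-43358980, plus strand: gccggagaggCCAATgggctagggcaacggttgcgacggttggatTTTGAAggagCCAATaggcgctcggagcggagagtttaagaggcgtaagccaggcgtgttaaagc
CCNF, chr16:2429337-2429446, plus strand: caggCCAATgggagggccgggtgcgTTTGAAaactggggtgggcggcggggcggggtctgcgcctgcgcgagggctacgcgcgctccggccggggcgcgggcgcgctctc
INCENP, chr11:62123901-62124010, plus strand: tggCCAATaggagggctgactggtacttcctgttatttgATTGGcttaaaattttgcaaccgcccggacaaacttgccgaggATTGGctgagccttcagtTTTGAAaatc
CDCA8, chr1:37692406-37692515, plus strand: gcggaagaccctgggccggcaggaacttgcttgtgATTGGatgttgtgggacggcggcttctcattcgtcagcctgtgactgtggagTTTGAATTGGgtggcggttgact
MAD2L1, chr4:120066849-120066958, minus strand: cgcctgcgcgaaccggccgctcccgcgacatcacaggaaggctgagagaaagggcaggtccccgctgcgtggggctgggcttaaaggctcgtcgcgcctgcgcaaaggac
BUB1, chr2:110678064-110678173, minus strand: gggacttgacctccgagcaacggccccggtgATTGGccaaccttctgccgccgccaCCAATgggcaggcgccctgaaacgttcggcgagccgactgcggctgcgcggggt
ECT2, chr3:172750616-172750725, plus strand: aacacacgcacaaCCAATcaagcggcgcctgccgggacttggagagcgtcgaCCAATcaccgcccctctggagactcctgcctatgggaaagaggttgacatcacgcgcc
NEK2, chr1:211675622-211675731, minus strand: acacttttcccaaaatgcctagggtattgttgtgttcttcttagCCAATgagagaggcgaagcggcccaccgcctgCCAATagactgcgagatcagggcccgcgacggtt
Counted with -1 as the last base before the start, the TTTGAA began at position -65 in CDC20, -85 in CCNF, -10 in INCENP and -23 in CDCA8. NCAPG, which is not shown, also has a TTTGAA in this stretch, at position -35. CDC20, CCNF, INCENP and NCAPG rose after ALKBH7 induction, and of these genes only CDCA8 fell. BUB1, ECT2 and NEK2 showed 2 CCAAT boxes each in this stretch and no TTTGAA, and NEK2 also rose after ALKBH7 induction. DLGAP5, KIF18A and NDC80 were also among the lowest in the uninduced ALKBH7 line. In them, as in CDC20, a TTTGAA begins in this stretch. BIRC5, TPX2 and FOXM1, which changed after ALKBH7 induction, had no window. Outside the stretch but within the windows, TTTGAA began at position -115 and at position 34 of ECT2 and at position 24 of MAD2L1, and the variant TTCGAA at position 1 of BUB1.

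Values below are log2 of bead intensity after all 12 arrays were quantile normalized together. A gene is described at its brightest tested probe unless another is named, and it is said to have changed when the p-value of the limma fit over all 15444 tested probes, adjusted by the Benjamini-Hochberg method, was under 0.05. Errors are the SD over 3 arrays for levels and the SE of the fit for differences. As a check of the labels, the ALKBH7 probe rose by 3.72 ± 0.17 after induction of the ALKBH7 line (13.2-fold, adjusted p = 1.01e-07). The ALKBH4 probe, which per the study anneals to an untranslated region and so checks nothing, differed by -0.12 ± 0.20 after induction of the ALKBH4 line (adjusted p = 0.999). VIM, KRT8, KRT18 and NEFL, as HEK293 cells have, were detected on all 12 arrays, and PTPRC, CD3E, COL1A2, DCN and LUM, which mark blood cells or fibroblasts, on 0. The blood marker CD14 was detected on 10 arrays, the fibroblast marker COL1A1 on 11, the renal marker PAX2 on 4 and the neurofilament gene NEFM on 1.

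One array stood apart from its label. Uninduced replicate 1 of the ALKBH7 line correlated over all tested probes at a mean r of 0.94 with the other arrays of its group and of 0.967 with the induced arrays of that line. At 34 of the 55 genes (61.8%) it lay nearer to the mean of the induced arrays than to the mean of the other uninduced arrays, as it did at 60.4% of all 10159 genes. Values without this array are given below for the counts, for the genes that changed after ALKBH7 induction and for the genes named between the uninduced lines. The array was singled out from these same data. Leaving out an uninduced array that resembles the induced ones can by itself widen differences and narrow the spread. The p-values and counts of those fits, for the difference between responses too, can therefore overstate the evidence. Median intensity before normalization was 45.6 to 61.6 units on the arrays of the ALKBH4 line and 98.9 to 121 on those of the ALKBH7 line, and 25.3% to 30.7% of the probes were detected per array.

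**Figure D1:**
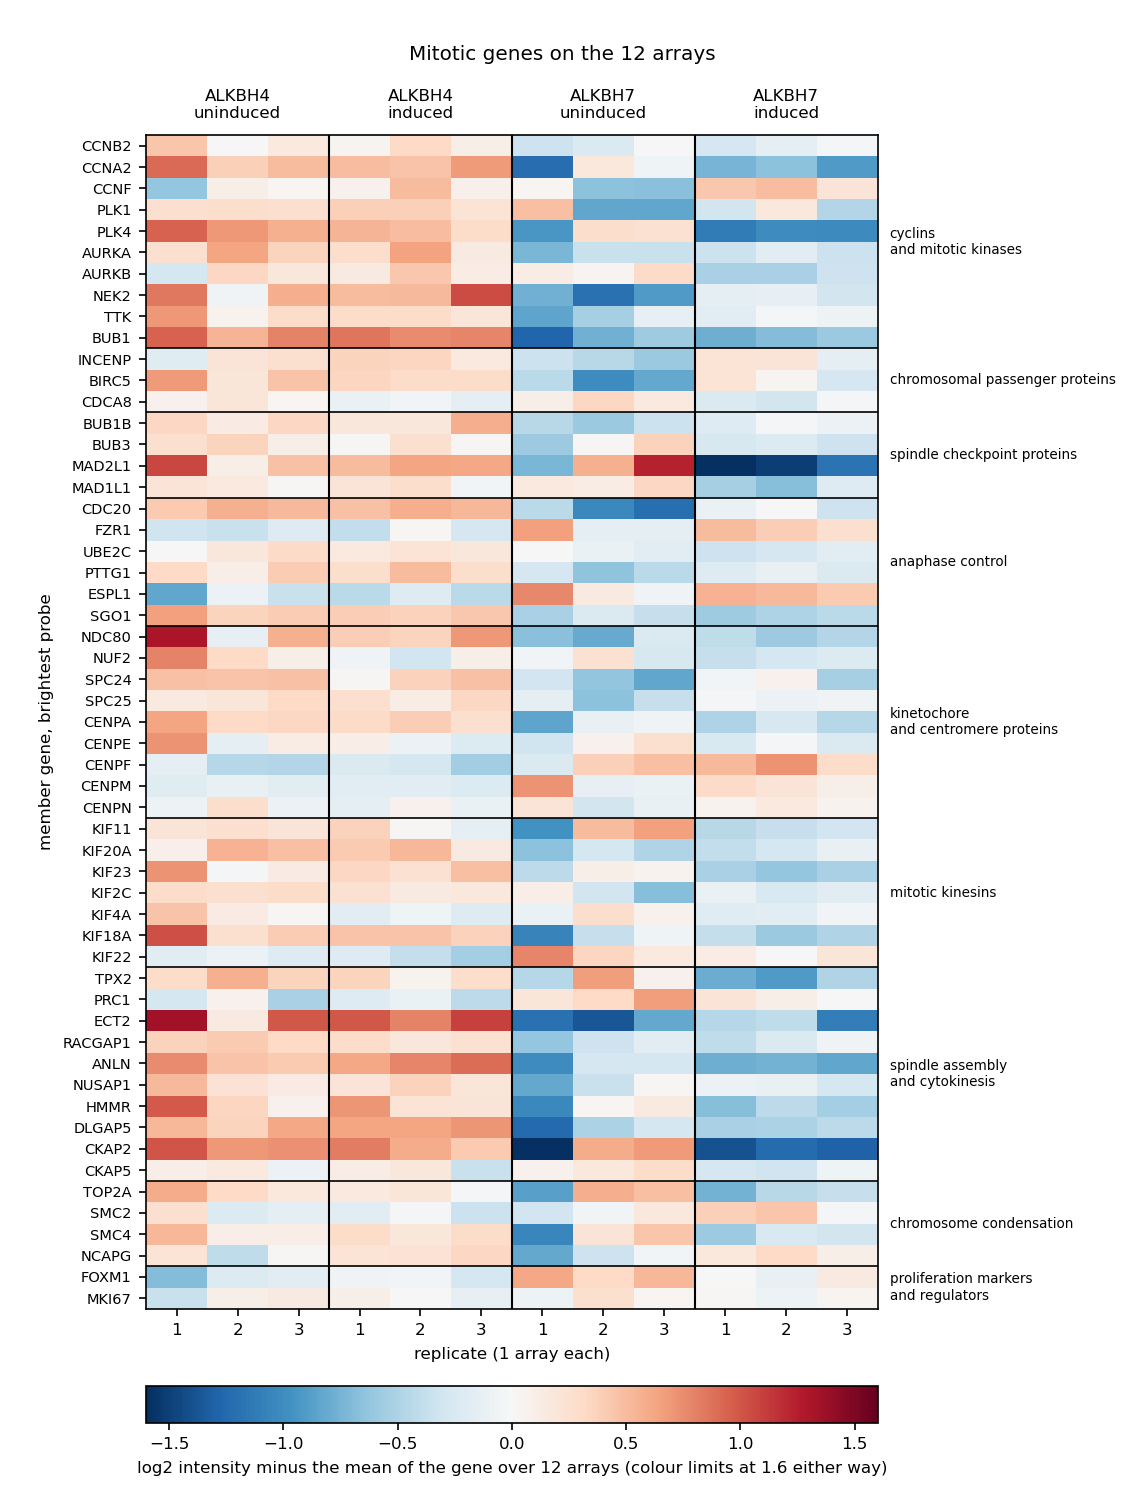
Each row is 1 of the 55 measured genes at its brightest probe and each column 1 array, with colour giving log2 intensity minus the mean of that gene over the 12 arrays (red above, blue below, with colours saturating at 1.6). The ALKBH7 line is mostly blue beside the ALKBH4 line, and uninduced replicate 1 of the ALKBH7 line differs from replicates 2 and 3 of its group for genes such as CKAP2, KIF11 and TOP2A.

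Across the 12 arrays the mitotic genes followed the line more than the induction. The median deviation of the 55 genes from their own 12-array means was 0.19 to 0.33 on the 6 arrays of the ALKBH4 line. It was -0.27, -0.22 and -0.23 on the induced arrays of the ALKBH7 line. On the uninduced arrays of that line it was -0.42 on replicate 1, -0.13 on replicate 2 and -0.06 on replicate 3. The same median over all genes stayed between -0.05 and 0.07 on every array. The arrays of the 2 lines thus did not overlap in this measure, whereas within the ALKBH7 line the uninduced arrays lay on both sides of the induced ones. In bulk samples fewer cells in G2 or M phase and less RNA per such cell cannot be told apart.

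Induction of ALKBH7 moved 13 of the 55 genes, 6 up and 7 down. The rises were those of CCNF, NEK2, BIRC5, CDC20, NCAPG and INCENP, and the falls those of MAD2L1, PLK4, TPX2, MAD1L1, AURKB, FOXM1 and CDCA8. The shares, 10.9% higher and 12.7% lower, were near those of all genes, of which 12.4% were higher and 10.4% lower. The median log2 difference was 0.03, against 0.05 over all genes. Induced and uninduced arrays did not overlap for 19 genes, 10 of them higher and 9 lower, while 35.7% of all genes had no overlap. The counts and the median were thus near those of all genes, and the changes are described gene by gene.

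Among the checkpoint proteins, MAD2L1 and MAD1L1 fell at their brightest probes, and BUB1B and BUB3 did not pass the test at theirs. The checkpoint kinases BUB1 and TTK, grouped below with the cyclins and kinases, differed by 0.18 and 0.41, and neither passed. BUB3 passed as lower, at -0.45 (adjusted p = 0.0179), without uninduced replicate 1 of the ALKBH7 line, and its dimmest tested probe, described below, rose. MAD2L1, which binds and inactivates CDC20, fell furthest of the 55 genes. It read 9.39, 10.68 and 11.35 on the uninduced arrays of the ALKBH7 line and 8.38, 8.61 and 8.93 on the induced ones, with 11.18, 10.21 and 10.58 on the uninduced and 10.62, 10.75 and 10.73 on the induced arrays of the ALKBH4 line. All induced arrays of the ALKBH7 line lay below each of the other 9 arrays. The fall was 1.83 ± 0.38 on the log2 scale (3.56-fold lower, adjusted p = 0.00575). MAD1L1, the kinetochore receptor of MAD2L1, read 7.48, 7.44 and 7.66 uninduced and 6.80, 6.64 and 7.12 induced. Here too the groups did not overlap, and the probe was detected on only 1 of the 3 induced arrays, so that the induced level was close to background. The fall was 0.67 ± 0.15 (1.59-fold lower, adjusted p = 0.0077). BUB1B, a kinase-related subunit of the mitotic checkpoint complex, differed by 0.35.

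CDC20, the target that these proteins restrain, changed the other way. It read 11.90, 11.30 and 11.12 uninduced and 12.22, 12.32 and 11.99 induced, a rise of 0.74 ± 0.18 (1.67-fold, adjusted p = 0.0112). On the 6 arrays of the ALKBH4 line CDC20 lay between 12.75 and 12.91, so the induced arrays of the ALKBH7 line were between those of the uninduced ALKBH7 line and those of the ALKBH4 line. Of the other 5 anaphase genes, none passed the test. FZR1, the second activator of the anaphase promoting complex, differed by 0.27, PTTG1 by 0.26 and UBE2C, its ubiquitin-conjugating enzyme, by -0.17.

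All 4 subunits of the chromosomal passenger complex, which corrects faulty attachments, changed after ALKBH7 induction, and they did so in both directions. AURKB, its kinase, read 11.96, 11.89 and 12.15 uninduced and 11.32, 11.32 and 11.51 induced, a fall of 0.62 ± 0.16 (adjusted p = 0.0172). CDCA8 fell by 0.38 ± 0.12 (adjusted p = 0.0376), from 10.69, 10.92 and 10.75 to 10.36, 10.30 and 10.56. The scaffold INCENP rose by 0.55 ± 0.15 (adjusted p = 0.022), from 7.43, 7.32 and 7.18 to 7.99, 7.97 and 7.62. BIRC5 (survivin), the subunit that binds the centromere, rose by 0.75 ± 0.18 (adjusted p = 0.0105), from 9.36, 8.78 and 8.97 to 10.01, 9.83 and 9.52. In none of the 4 did the groups overlap. Of 27 alternative fits, described below, CDCA8 did not pass in 13, INCENP in 10, AURKB in 6 and BIRC5 in 5.

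Of the 10 cyclins and mitotic kinases, which include AURKB, CCNF and NEK2 rose and PLK4 fell. CCNF, the F-box protein cyclin F, read 9.81, 9.12 and 9.11 uninduced and 10.20, 10.27 and 9.98 induced, a rise of 0.81 ± 0.23 (1.75-fold, adjusted p = 0.0222). NEK2, a kinase of centrosome separation, read 7.67, 7.24 and 7.53 uninduced and 8.29, 8.31 and 8.15 induced, a rise of 0.77 ± 0.22 (adjusted p = 0.0226). PLK4, the kinase that starts centriole duplication, fell by 0.91 ± 0.25 (1.88-fold, adjusted p = 0.0214). Its uninduced arrays read 8.40, 9.61 and 9.58 and its induced arrays 8.21, 8.33 and 8.31. Replicate 1 of the uninduced arrays was thus close to the induced level and set most of the SD of 0.69 in that group. AURKA, the centrosomal Aurora kinase and the brightest of this group, differed by 0.19 and BUB1 by 0.18, neither past the test.

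TPX2, the activator of AURKA on spindle microtubules, was the only 1 of 10 spindle assembly and cytokinesis genes to pass, with a fall of 0.83 ± 0.23 (adjusted p = 0.0205). It read 9.65, 10.78 and 10.17 uninduced and 9.31, 9.20 and 9.62 induced. NCAPG, a condensin I subunit, rose by 0.59 ± 0.19 (adjusted p = 0.0403), from 9.27, 9.76 and 10.04 to 10.26, 10.40 and 10.18. TOP2A, the topoisomerase that untangles sister chromatids, differed by -0.59 and did not pass. FOXM1, a transcription factor of the group, fell by 0.47 ± 0.16 (adjusted p = 0.043), from 9.66, 9.36 and 9.57 to 9.05, 8.92 and 9.19. MKI67, the Ki-67 proliferation antigen, differed by -0.07. None of the 9 kinetochore and centromere genes and none of the 7 mitotic kinesins passed at its brightest probe, with differences of -0.28 to 0.41 and of -0.46 to 0.21.

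**Figure D2:**
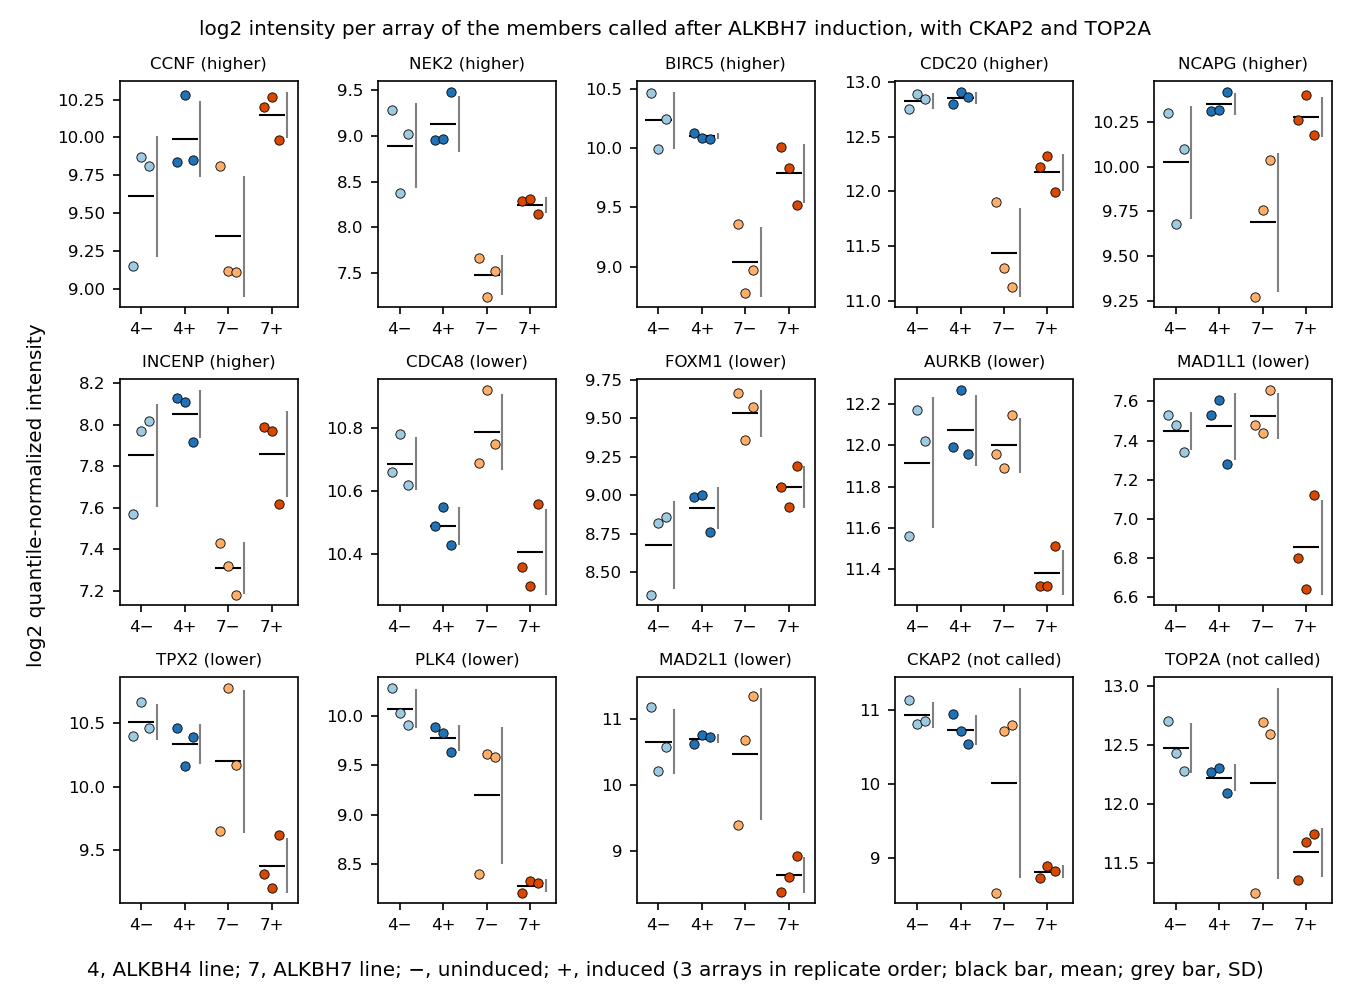
Each panel plots log2 intensity of 1 gene on the 12 arrays, by line and induction, with the mean (black) and SD (grey) of each group of 3 on its own vertical scale. For the 13 genes that passed, induced and uninduced arrays of the ALKBH7 line do not overlap, and for CKAP2 and TOP2A uninduced replicate 1 lies below the induced arrays.

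The number of changed genes depended on single arrays. Without uninduced replicate 1 of the ALKBH7 line 27 of the 55 genes passed, 11 higher and 16 lower, beside 23.7% of all genes higher and 20.2% lower. Of the 13 genes 11 were kept, NCAPG (0.38, adjusted p = 0.0745) and FOXM1 (-0.41, adjusted p = 0.0558) were lost, and 16 others were added. The rises without that array were 1.04 for CCNF, 0.96 for CDC20, 0.92 for BIRC5, 0.88 for NEK2 and 0.62 for INCENP. TPX2 stood at -1.11, MAD1L1 at -0.71, AURKB at -0.64 and CDCA8 at -0.43, so that all 9 lay as far from 0 as with all arrays or further. The second probe of NEK2, described below, passed as lower in that fit. Of all probes 24% passed with all arrays and 44.3% without uninduced replicate 1. The count was 5 without uninduced replicate 2, beside 11.7% of all probes, and 6 without uninduced replicate 3, beside 13.6%. It was 3 without induced replicate 1, beside 10.0%, and 2 without induced replicate 2, beside 8.28%. MAD2L1 and MAD1L1 passed in every one of these fits. With median scaling in place of quantile normalization 0 passed, beside 1 of all 15444 probes. With weights for array quality 36 passed, beside 55.6% of all probes, and with each line fitted alone 6, beside 11.0%. The split of 6 higher and 7 lower, beside 1824 and 1886 of all probes, became 3 and 8 with cyclic loess, beside 1307 and 2039. With the mean of a gene's probes it was 4 higher and 10 lower, beside 1472 and 1345 over the whole array.

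CKAP2, a spindle protein, moved most with that array. It read 8.52, 10.71 and 10.80 on the uninduced and 8.72, 8.89 and 8.82 on the induced arrays of the ALKBH7 line, against 10.54 to 11.13 on the ALKBH4 line. At this brightest probe replicate 1 thus lay below all induced arrays while replicates 2 and 3 were at the level of the ALKBH4 line. With all arrays the difference was -1.20 and did not pass. Without replicate 1, singled out above because it resembled the induced arrays, it was -1.95 ± 0.14 (3.86-fold lower, adjusted p = 8.63e-07). The second probe of CKAP2, detected on all 12 arrays, went the other way. It differed by 0.46 with all arrays and by 0.41 without replicate 1, and passed in neither fit. It read 7.13, 7.08 and 7.51 on the uninduced arrays of the ALKBH7 line, below every array of the ALKBH4 line. TOP2A read 11.24, 12.69 and 12.59 uninduced and 11.35, 11.67 and 11.74 induced, and it fell by 1.05 ± 0.15 (adjusted p = 0.000111) without replicate 1. KIF11, the plus-end motor that pushes the spindle poles apart, fell by 0.96 ± 0.14 (adjusted p = 0.000144) in that fit. Its second probe, detected on all 12 arrays, differed by 0.39 with all arrays and by 0.22 without replicate 1, and passed in neither fit. The cyclin CCNA2 fell by 0.82 ± 0.16 (adjusted p = 0.00092) without replicate 1. PLK1, the kinase that drives several steps of mitosis, read 8.59, 7.27 and 7.27 uninduced and 7.81, 8.27 and 7.64 induced, and it rose by 0.65 ± 0.16 without replicate 1 (adjusted p = 0.00458). For PLK1 replicate 1 lay above every induced array. Without replicate 1 MAD2L1 fell by 2.38 ± 0.25 (5.21-fold, adjusted p = 8.45e-06) and PLK4 fell by 1.32 ± 0.14.

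**Figure D3:**
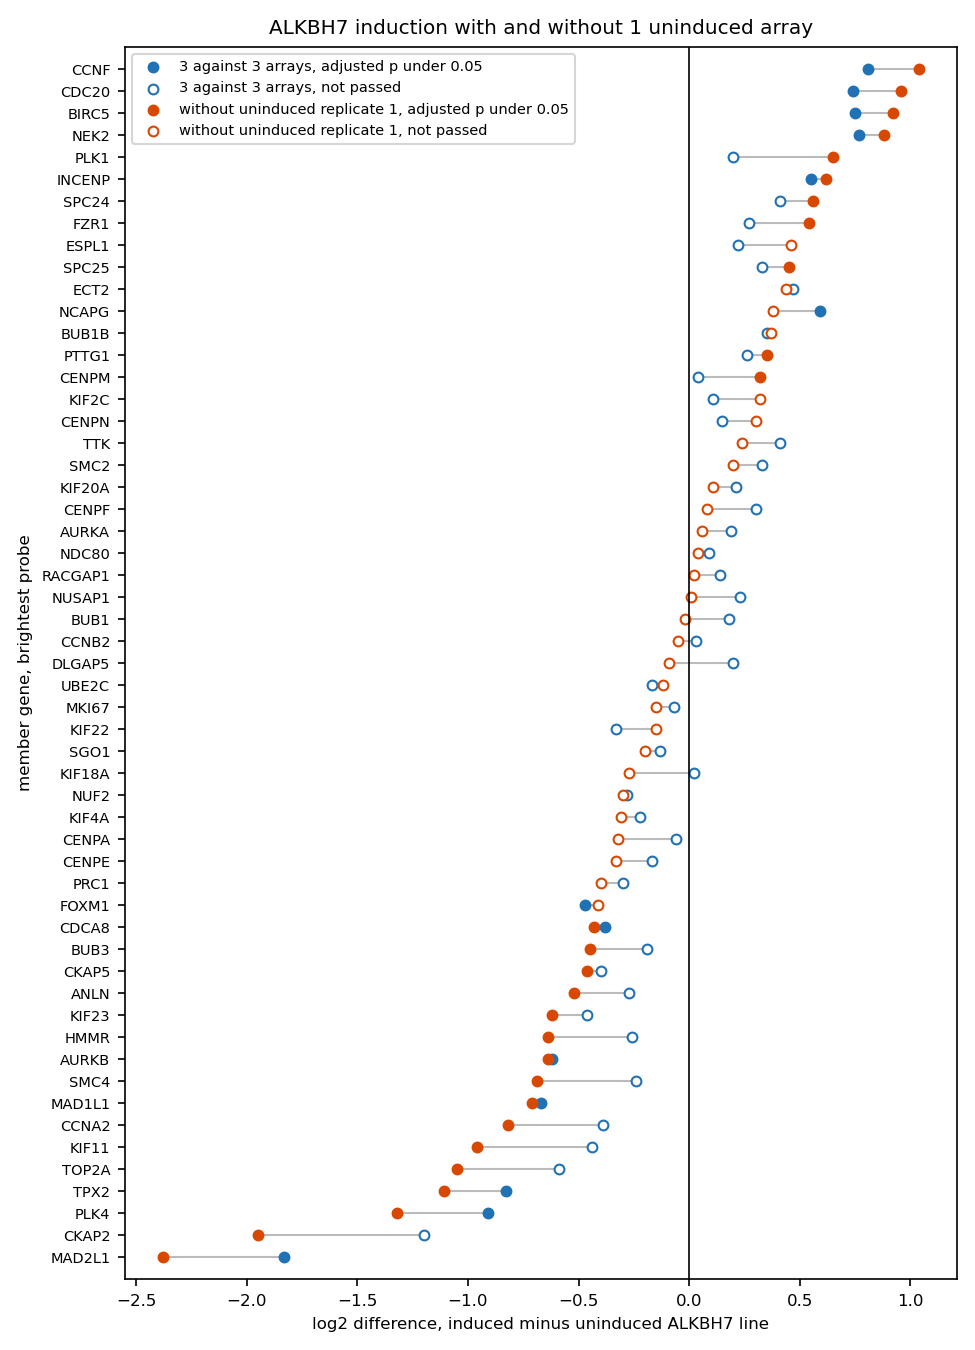
For each of 55 genes the log2 difference between induced and uninduced ALKBH7 arrays is plotted from all 6 arrays (blue) and without uninduced replicate 1 (orange), with filled points for adjusted p under 0.05. The filled points number 13 with all arrays and 27 without that array, and most lower genes move further down.

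Where a gene had 2 or more tested probes, the 2 brightest often moved apart after ALKBH7 induction. Among 23 such genes 9 (39.1%) had the same sign at both probes, against 54.8% of 2336 genes over the whole array. Both probes passed in the same direction for 0 of the 23, and only 1 of the pair passed for 9. The clearest case was HMMR, a microtubule-binding protein of the spindle. Its brighter probe differed by -0.26 and did not pass. Its second probe read 8.20, 8.02 and 8.47 uninduced and 9.18, 9.18 and 8.99 induced, a rise of 0.88 ± 0.24 (adjusted p = 0.0198). For CENPM, a centromere protein, the brightest probe differed by 0.04, while the other 2 fell by 0.59 ± 0.19 (adjusted p = 0.0363) and 0.93 ± 0.17 (adjusted p = 0.00325).

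BUB3, the checkpoint protein that brings BUB1 to the kinetochore, had 3 tested probes. The brightest differed by -0.19 and the next by -0.68, and neither passed. The third read 7.68, 7.10 and 7.44 uninduced and 8.40, 8.44 and 8.36 induced, a rise of 0.99 ± 0.26 (adjusted p = 0.0177). NEK2 rose at its brightest probe and differed by -0.59 at the second (adjusted p = 0.0632). Without uninduced replicate 1 of the ALKBH7 line the second differed by -0.84 ± 0.18 (adjusted p = 0.00207). In that fit the 2 probes of NEK2 thus passed in opposite directions. CENPA, the histone of centromeric chromatin, fell by 0.46 ± 0.14 at its dimmer probe only (adjusted p = 0.0317). The dimmer probe of KIF23, a kinesin of the central spindle, fell by 0.62 ± 0.19 (adjusted p = 0.0345) and was detected on 0 of the 3 induced arrays, so that the fall is at least 1.06-fold. The second probe of MAD2L1 was detected on none of the 6 arrays of the ALKBH7 line and gives no second reading of its fall. The second probe of INCENP was detected on 1 uninduced and 0 induced arrays of that line. FOXM1 was the gene with the closest pair among those called, at -0.47 and -0.46 (adjusted p = 0.0585 for the second). BIRC5 differed by 0.30 at its second probe, which did not pass. What part of a transcript each probe reads was not analysed here.

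**Figure D4:**
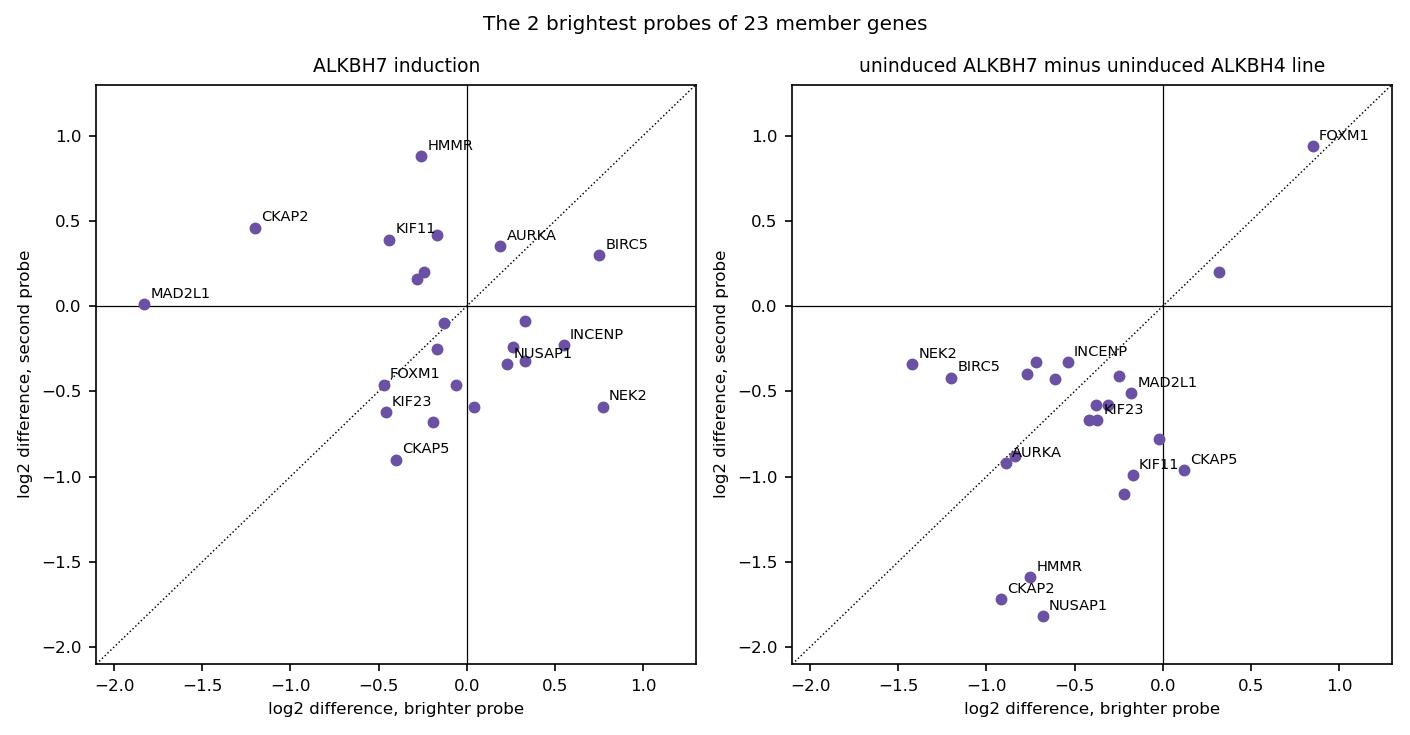
Each point is 1 of 23 genes with 2 or more tested probes, with the log2 difference at the brighter probe on the horizontal and at the second brightest on the vertical axis, and a dotted line of equal values. After ALKBH7 induction (left) 9 of 23 genes have the same sign at both, and between the uninduced lines (right) 22 of 23.

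Induction of ALKBH4 changed 0 of the 55 genes by limma, as it changed 0% of all genes, and 2 had an unadjusted p under 0.05. The median difference was -0.04. For 8 of the 55, 2 higher and 6 lower, the groups did not overlap, while 9.81% of all genes had no overlap. The lowest by moderated t were NUF2, a kinetochore protein of the NDC80 complex, at -0.50 ± 0.18 and KIF4A, a chromosome-arm kinesin, at -0.35 ± 0.14. They were followed by CDCA8 at -0.20, CENPE at -0.30 and KIF22 at -0.22. The highest were NCAPG at 0.33 ± 0.19, FOXM1 at 0.24, CCNF at 0.38, INCENP at 0.20 and ANLN at 0.22. All 10 had an adjusted p of 0.999.

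The test of the difference between the responses to the 2 inductions passed for 0 of the 55 genes, beside 0.0492% of all genes, and 7 had an unadjusted p under 0.05. The lowest difference was that of MAD2L1 at -1.88 ± 0.53 (adjusted p = 0.115) and the highest that of BIRC5 at 0.89 ± 0.25 (adjusted p = 0.114). A change in the ALKBH7 line and none in the ALKBH4 line was thus not shown to differ between the lines with all 12 arrays. Without uninduced replicate 1 of the ALKBH7 line 16 genes passed this test, 3 higher and 13 lower, beside 21.7% of all probes. With array weights 25 passed, beside 41.6% of all probes, whereas 0.0712% of all probes passed with all arrays weighted equally.

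The larger contrast lay between the lines before any induction. In the uninduced ALKBH7 line 24 of the 55 genes were lower and 5 higher than in the uninduced ALKBH4 line. The shares were 43.6% lower and 9.09% higher, beside 17% of all genes lower and 21.7% higher. The median difference was -0.42, against 0 over all genes, and 43 of the 55 genes lay below 0. Groups did not overlap for 30 genes, 25 of them lower, while 43.7% of all genes had no overlap. Median intensity before normalization also differed between these groups, as given above, and its part in the result was not tested. The line and any batch that follows it cannot be told apart. Without uninduced replicate 1 of the ALKBH7 line 25 genes were lower and 5 higher, beside 19.6% of all genes lower and 23.3% higher, with a median of -0.38, and all 29 genes were kept.

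The lowest was ECT2, the exchange factor that activates RhoA for cytokinesis. It read 10.30, 9.09 and 9.94 in the ALKBH4 line and 7.76, 7.58 and 8.13 in the ALKBH7 line, 1.96 ± 0.27 lower (3.88-fold lower, adjusted p = 0.000209). BUB1, the checkpoint kinase, read 10.03, 9.62 and 9.88 against 7.81, 8.31 and 8.51, with a difference of -1.63 ± 0.17 (3.10-fold lower, adjusted p = 3.95e-05). NEK2 differed by -1.42 ± 0.22 and BIRC5 by -1.20 ± 0.18. CDC20 read 12.75, 12.89 and 12.85 against 11.90, 11.30 and 11.12, with a difference of -1.39 ± 0.18 (2.62-fold lower, adjusted p = 0.00012). DLGAP5, a spindle microtubule protein, differed by -1.18 ± 0.19, NDC80, which binds microtubules at the kinetochore, by -1.15 ± 0.27 and KIF18A, a kinesin that damps chromosome movement, by -1.07 ± 0.24. In all 8 the arrays of the lines did not overlap. Without uninduced replicate 1 of the ALKBH7 line these differences ran from -1.94 for ECT2 to -0.79 for KIF18A.

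The genes that were higher in the uninduced ALKBH7 line were FOXM1, ESPL1, PRC1, KIF22 and CENPF. FOXM1 read 8.35, 8.82 and 8.86 in the ALKBH4 line and 9.66, 9.36 and 9.57 in the ALKBH7 line, 0.85 ± 0.16 higher (1.80-fold, adjusted p = 0.00127). The transcription factor thus lay on the other side from most genes of the list. ESPL1 (separase) was higher by 0.71 ± 0.21 (adjusted p = 0.0176), PRC1, which bundles the midzone, by 0.64 ± 0.17 (adjusted p = 0.0106), the chromokinesin KIF22 by 0.58 ± 0.16 (adjusted p = 0.0111) and the kinetochore protein CENPF by 0.57 ± 0.19 (adjusted p = 0.0294). Without uninduced replicate 1 of the ALKBH7 line the 5 lay between 0.41 for KIF22 and 0.79 for FOXM1 and CENPF. With median scaling PRC1 was at -0.07 and none of the 5 passed.

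By role, 6 of 10 cyclins and kinases were lower in the uninduced ALKBH7 line and 0 higher. For this and the counts that follow, the shares of all genes were 17% lower and 21.7% higher. Of the 3 chromosomal passenger proteins other than AURKB 2 were lower and 0 higher, and of FOXM1 and MKI67 0 were lower and 1 higher. Of the spindle assembly and cytokinesis genes 5 of 10 were lower and 1 higher, of the kinetochore and centromere genes 4 of 9 and 1, and of the anaphase genes 3 of 6 and 1. Of the mitotic kinesins 3 of 7 were lower and 1 higher. Of the 4 checkpoint proteins outside the kinase group 1 was lower, BUB1B at -0.72, and MAD2L1, at -0.18, did not pass. The checkpoint kinases BUB1 and TTK, counted above among the cyclins and kinases, differed by -1.63 and -0.85. Without uninduced replicate 1 of the ALKBH7 line they differed by -1.44 and -0.68. None of the 4 measured condensation genes passed, with differences of -0.38 to -0.02. Without uninduced replicate 1 of the ALKBH7 line 5 genes changed sign, none of them past the test with all arrays, namely MAD2L1 at 0.36, KIF11 at 0.35, TOP2A at 0.17, SMC2 at 0.10 and SMC4 at 0.07. The split of 5 higher and 24 lower, beside 3076 and 2854 of all probes, became 0 and 22 with median scaling, beside 354 and 1043. Median scaling moved the median over all probes to -0.24. In the authors' normalized values the lines were scaled apart and the median over all probes was 0.47. With these values the split was 9 higher and 20 lower, beside 8315 and 898 of all probes.

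The same comparison in the induced arrays, added after the data had been seen, used 6 other arrays. In the induced ALKBH7 line 25 of the 55 genes were lower and 4 higher than in the induced ALKBH4 line, beside 17.9% of all genes lower and 24.9% higher, with a median of -0.46 against 0.08. Of the 24 genes that were lower among uninduced arrays 17 (70.8%) were lower here too, which is 68% of the 25. For the higher genes the overlap was 3, ESPL1, CENPF and KIF22, which is 60% of the 5 and 75% of the 4. No gene passed in opposite directions, and 47 of the 55 had the same sign. These overlaps were not counted over all genes, so they cannot be read as particular to this list. ECT2 differed by -1.62 ± 0.27 and BUB1 by -1.49 ± 0.17. MAD2L1 was the lowest here, at -2.06 ± 0.38 (4.17-fold lower, adjusted p = 0.00112), after -0.18 in the uninduced arrays, or 0.36 without uninduced replicate 1 of the ALKBH7 line. BIRC5, at -0.31, and FOXM1, at 0.14, did not pass in the induced arrays.

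**Figure D5:**
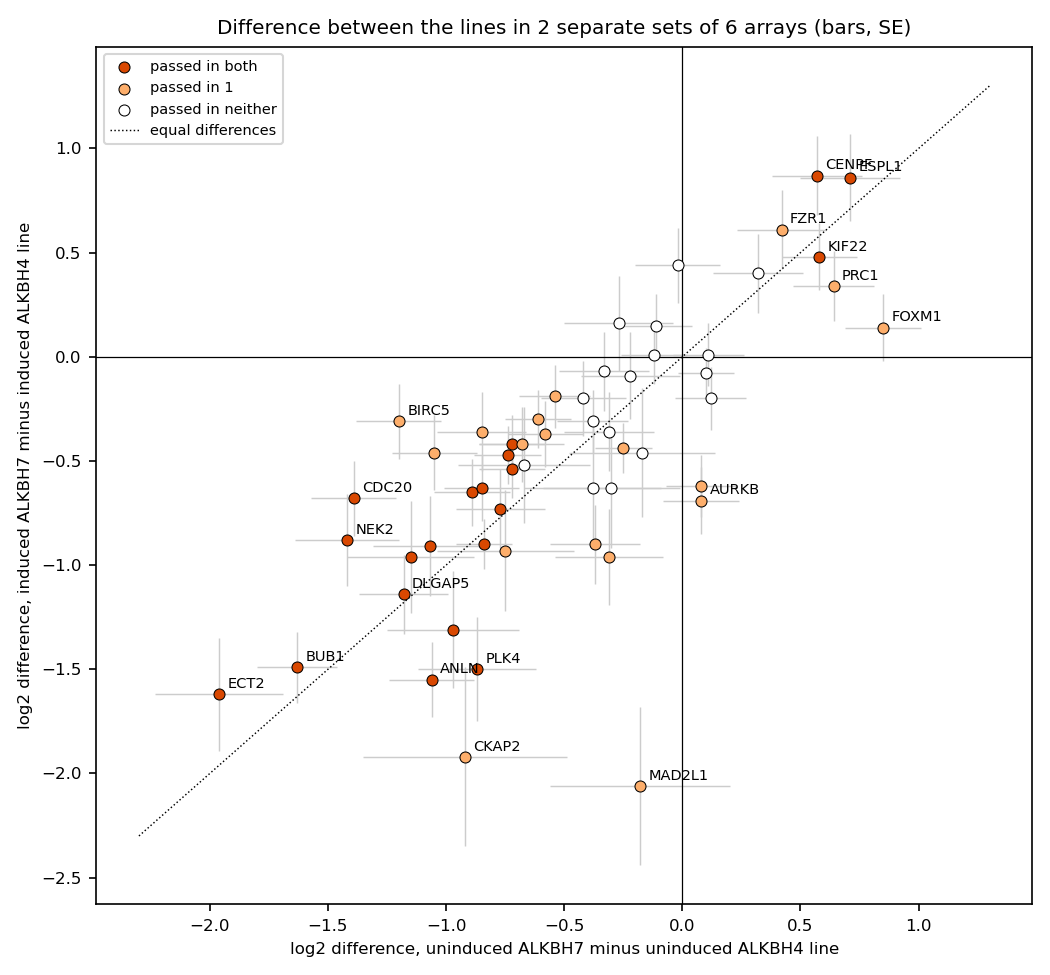
The log2 difference between the ALKBH7 and the ALKBH4 line is plotted for 55 genes from the 6 uninduced arrays (horizontal) and the 6 induced arrays (vertical), with SE bars and a dotted line of equal differences. Most genes lie below 0 on both axes, 17 passed as lower in both, and MAD2L1 is far below 0 only among the induced arrays.

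The sign of the difference was shared by both probes more often between lines than after induction. At 22 of the 23 genes (95.7%) both probes had the same sign in the comparison of uninduced lines, against 67.9% of 2336 genes, and at 7 both passed in the same direction. The second probes of MAD2L1 and of the kinetochore gene SPC25 were detected on 0 arrays of the ALKBH7 line. They entered the test through the ALKBH4 line, and that of INCENP was detected on 1 uninduced and 0 induced arrays of the ALKBH7 line. The second probes of NUF2 and SMC4 were each detected on 1 uninduced and 1 induced array of the ALKBH7 line, and on more arrays of the ALKBH4 line. For such probes the filter itself favours a lower value in the ALKBH7 line, so their sign is not an independent second reading. The 22 genes include all of these, and such probes were not counted among the 2336 genes. The sizes still differed, by over 2 SE at 39.1% of the 23 genes and 32.9% of the 2336, against 43.5% and 43.8% after ALKBH7 induction. Across genes, which are not independent, the 2 probes correlated between lines at r of 0.452 over the 23 genes and 0.512 over the 2336. The exception in sign was CKAP5, a microtubule polymerase, at 0.12 and -0.96. FOXM1 was higher at both probes, by 0.85 and 0.94. NUSAP1, a spindle-associated protein, differed by -0.68 at its brighter and by -1.82 at its second probe.

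The promoter letters of the genes that differed are given as counts only. Of the genes lower in the uninduced ALKBH7 line 20 had 24 windows, of which 13 (54.2%) held TTTGAA and 17 (70.8%) a CCAAT box. Of the genes higher there 4 had 5 windows, with 3 and 4. Of the genes that rose after ALKBH7 induction 5 had 5 windows, with TTTGAA in 4, and of those that fell 5 had 8 windows, with TTTGAA in 3.

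Other mitotic genes that are not in the list were followed in 5 lists, with 92 of 104 genes measured. Over them 11 (12%) rose and 12 (13%) fell after ALKBH7 induction, beside 12.4% and 10.4% of all genes, with a median of 0.01, and 0 passed after ALKBH4 induction. Between the uninduced lines 13 (14.1%) were higher and 23 (25%) lower in the ALKBH7 line, beside 21.7% and 17% of all genes, with a median of -0.24. Among 30 further kinetochore and centromere genes 4 rose and 5 fell, with CENPW at 1.42, CENPX at 1.06, CENPK at -1.29 and CENPT at -1.04. Among 15 subunits of the anaphase promoting complex 2 rose, CDC16 at 0.53 and ANAPC4 at 0.43, and 2 fell, ANAPC7 at -1.24 and ANAPC1 at -0.49. Of 11 cohesin genes, RAD21, the subunit that separase cuts, rose by 1.20 and PDS5B by 0.49, while SMC3, a core subunit of the ring, fell by 1.26 and WAPL, which releases cohesin from chromatin, by 1.34. Of 4 other condensin genes NCAPG2 fell by 1.52. Among 32 further spindle, centrosome and cytokinesis genes 3 rose, with HAUS2 at 0.80 and CENPJ at 0.75 the highest, and 2 fell, NEDD1 by 1.09 and KNSTRN by 0.78.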

How the data were processed

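Total RNA of 12 samples was measured on Illumina HumanWG-6 v3 arrays. The deposited table holds, for each array, the bead intensity that the authors exported without normalization from GenomeStudio, and a detection p-value per probe, deposited beside it. A second deposited table holds the authors' quantile-normalized intensity on a linear scale, in which each line was normalized on its own, and was used only as an alternative. Groups came from sample titles, and 0 sample columns lacked a sample.

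Without background correction, the 12 arrays were jointly quantile normalized, and log2 was taken. Probes with detection p under 0.01 on at least 3 arrays were fitted with 1 mean per group in limma 3.58.1 (R 4.3.3, lmFit and eBayes), with adjustment over 15444 probes and a threshold of 0.05. Symbols came from the platform annotation, in which 27578 probes had 1 symbol, 13 several and 21212 none. All-gene shares use the brightest probe of 10159 genes. The script was tested on simulated data. The 2 most similar arrays differed at 48773 probes. Depth of bead arrays is not a count, and 3 arrays per group limit the precision.

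Members and lists were chosen with earlier results of these data known. Named were all members past the threshold at any probe after ALKBH7 induction, 5 highest and 5 lowest moderated t after ALKBH4 induction, 8 of each direction between uninduced lines, members whose probes differed in call, members without a tested probe, the brightest of each role, and up to 2 per direction from each other list. CKAP2, KIF11, CCNA2, PLK1, FZR1, UBE2C, BUB1B, MKI67, NUSAP1, CKAP5, SMC2 and SMC4 were named after their values were seen. So were TTK, SPC25 and the 2 highest differences between responses. The authors' rank product was replaced by limma. Figures were drawn in Python with matplotlib. Alternatives covered background correction, scaling, probe filter, array weights, the block by replicate number, thresholds, and each array left out.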

Additional observations from a re-analysis of the deposited data

How the results depend on the processing

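The count of genes changed by ALKBH7 induction, 13 of 55, was 0 with median scaling, 6 with each line alone, 36 with array weights and 2 at an adjusted p of 0.01, and it ranged from 2 to 27 when 1 array was left out. The median of these genes, 0.03, was 0.20 with median scaling, -0.10 with array weights, 0.19 with uninduced replicates 2 and 3 left out together, and -0.09 to 0.05 with 1 array left out. Median scaling moved the median after ALKBH4 induction from -0.04 to 0.32, while the median over all probes moved to 0.28, and no alternative gave a call there. The difference between responses passed for 0 genes (0.0712% of all probes), 25 with array weights (41.6%) and 0 to 16 with 1 array left out (0.00648% to 21.7%). Its median, 0.13, was -0.13 with median scaling, -0.08 with array weights, 0.02 with cyclic loess, 0.25 with uninduced replicates 2 and 3 left out, and 0.02 to 0.13 with 1 array left out, the lowest without uninduced replicate 1 of the ALKBH4 line. Between the uninduced lines the count, 29 beside 38.4% of all probes, was 25 to 32 with 1 array left out, beside 27.0% to 42.2%. Its median, -0.42, was -0.92 with median scaling, -0.54 for genes detected on all 12 arrays, -0.15 in the authors' values, -0.28 with array weights, -0.54 with the mean of a gene's probes, -0.77 with replicates 2 and 3 left out, and -0.56 to -0.38 with 1 array left out. At an adjusted p of 0.01 there were 20 genes, beside 1878 higher and 1392 lower of all probes. PRC1 turned to -0.07 with median scaling. The causes were not tested. The 8 lowest genes between lines passed in all alternatives run.

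Whether same-numbered replicates were paired cannot be told from the labels. Correlations cannot settle it either, because removing the means of such small groups ties the remaining values of a group together. After group means were removed, same-numbered arrays correlated at -0.13, 0.26 and 0.11 in the ALKBH4 line. In the ALKBH7 line they correlated at 0.41, -0.12 and 0.17. Some arrays matched their own number best and others did not. With the replicate block 10 genes passed after ALKBH7 induction, 5 in each direction, and the other counts were 0, 0 and 29. Of all probes 1636 were higher and 1701 lower after ALKBH7 induction in that fit. Between the uninduced lines 2896 were higher and 2700 lower. Dim probes limit the levels of MAD1L1, KIF18A, NUF2 and FZR1, which were not detected on all 12 arrays.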

Other observations

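Genes of the G1/S transition and of DNA replication, which act earlier in the cycle, were measured for 32 of 34 listed genes. After ALKBH7 induction 3 rose and 3 fell (9.38% each), near the 12.4% and 10.4% of all genes, with a median of -0.03. CCNE1, the cyclin that drives entry into S phase, rose by 0.85 ± 0.13 and GINS2, a subunit of the replicative helicase, by 0.55 ± 0.14, while POLE, the leading-strand polymerase, fell by 0.83 ± 0.16 and RFC4, of the clamp loader, by 0.77 ± 0.23. Between the uninduced lines 7 (21.9%) were higher and 12 (37.5%) lower in the ALKBH7 line, beside 21.7% and 17% of all genes, with a median of -0.25. Of 9 measured subunits of the DREAM and B-MYB complexes, LIN54 rose by 0.54 ± 0.14 and RBL2 (p130) fell by 1.18 ± 0.30 after ALKBH7 induction.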
